A study of Homo sapiens with 15 samples.

Results

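Gene expression was compared between A375 melanoma cells, an established human cell line, that overexpressed wild-type MKL1 and A375 cells that carried a control vector. The comparison uses 6 of the 15 RNA-seq libraries of the series, 3 with MKL1 and 3 with control vector, and all 20323 genes of the table that holds them. Of these, 13409 had enough counts to be tested. The libraries of cells that overexpressed caMKL1, a constitutively active form, also 3, serve for values side by side. Overexpression lasted 48 hours in all 9 libraries. No label gives the promoter that drove the inserts, their length, how the vector was delivered or whether the libraries of a group came from separate cultures, so p-values measure only the spread between these libraries, which may be technical. The other 6 libraries, from cells in high or low serum, were not used.

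MKL1, whose current gene symbol is MRTFA, works with the transcription factor SRF, serum response factor. Monomeric actin holds it in the cytoplasm. When actin assembles into filaments, MRTFA is released, enters the nucleus and joins SRF on promoters with a CArG box, an A/T-rich SRF site, to drive genes of the actin cytoskeleton, of muscle contraction and of cell adhesion. In melanoma and in fibroblasts the pathway is known for its part in motility and in matrix production.

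The libraries held 20387727 to 23501312 counts with MKL1 and 20784978 to 23957043 with control vector, and 3 counts correspond to 0.125 to 0.147 CPM (counts scaled to library size). The first principal component, with 48.31% of the variance, parted the groups, and the second, with 16.06%, set control vector replicate 1 apart from control vector replicates 2 and 3. SOX10, a transcription factor of the melanocytic lineage, had 996, 917 and 970 CPM with MKL1, against 900, 956 and 994 CPM with control vector, while MLANA and PMEL, pigment cell antigens, stayed under 1 CPM in every library. The 11 lymphocyte markers summed to 0.84 to 1.60 CPM with MKL1 and 0.39 to 1.05 CPM with control vector, with CD2, CD3D and MS4A1 among those at 0 in all 6 libraries. In bulk RNA, fewer cells that express a gene and less RNA of it per cell cannot be told apart.

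MRTFA itself checked the labels. It had 746, 782 and 723 CPM with MKL1, against 26.3, 25.9 and 25.9 CPM with control vector, a log2 fold change of 4.85 ± 0.05 (SE; edgeR adjusted p = 1.4e-16). Its gene (ENSG00000196588) lies at chr22:40410281-40636702 on the minus strand of GRCh38, and reads of the introduced and the native copy cannot be told apart. On the scale of the fit over 9 libraries, MRTFA RNA stood at 709 to 771 CPM with MKL1, at 463 to 481 CPM with caMKL1 and at 25.7 to 26.2 CPM with control vector. The MRTFA count was higher with MKL1 than with caMKL1, whose inserts may differ in length.

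Many genes were called, most of them for small differences. At an adjusted p under 0.05 in edgeR's quasi-likelihood test, 4182 genes (31.2% of those tested) differed, 2114 higher with MKL1 (15.8%) and 2068 lower (15.4%). With each library scaled by its total alone the split was 2534 higher and 1683 lower. The median size of a called difference was 1.22-fold, and 87.88% of the calls were under 1.5-fold. Differences of at least 2-fold numbered 177 (1.32% of the genes tested), 135 rises (1.01%) and 42 falls (0.313%). The CPM of the groups did not overlap in 6220 genes (46.4%), with MKL1 above in 23.7% and below in 22.7%. Without MKL1 replicate 3 the number of calls was 2595, 166 of them at least 2-fold.

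Promoter sequences of genes in the SRF programme and in the DNA replication group are shown first, because these groups hold many of the calls described after them; the replication words were chosen after values had been seen. They come from RefSeq on build GRCh38.p14, and the 250 bases before each annotated start were searched in 27305 genes. The CArG box was taken as CC, 6 bases of A or T in any order, then GG, which is the same class on both strands. A gene counted if any of its annotated starts had a match. It stood in the searched windows of 5 of 22 actin, tropomyosin and contractile genes and of 6 of 26 focal adhesion genes, against 1.44% of all genes in the promoter table and 1.53% of the genes tested. Capitals mark the CArG box in these stretches, which hold no more than 30 bases of an annotated exon:
TPM4: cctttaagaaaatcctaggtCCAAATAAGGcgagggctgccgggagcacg
CNN2: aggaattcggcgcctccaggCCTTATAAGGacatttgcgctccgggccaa
SMTN: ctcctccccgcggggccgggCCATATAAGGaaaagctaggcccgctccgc
LPP: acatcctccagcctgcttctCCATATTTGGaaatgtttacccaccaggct
ACTG1: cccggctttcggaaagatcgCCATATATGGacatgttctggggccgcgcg
SRF: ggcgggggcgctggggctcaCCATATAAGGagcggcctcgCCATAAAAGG
The stretches lie at chr19:16067345-16067394 (TPM4), chr19:1026499-1026548 (CNN2), chr22:31084932-31084981 (SMTN), chr3:188212509-188212558 (LPP), chr17:81512864-81512913 (ACTG1, minus strand) and chr6:43171219-43171268 (SRF), the others on the plus strand. The box stood in 2.06% of the promoters of genes called higher and 1.56% of those called lower, and in none of 30 matrix glycoprotein and 6 fibrillar collagen promoters. A match is to letters only, and its absence says nothing of binding. MYL9, TAGLN and ACTB have no entry in the promoter table.

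For the replication group, 4 words of the E2F factors that drive S-phase genes, TTTCCCGC, TTTGGCGC, TTTGCCGC and TTTCGCGC, were searched on both strands, and hits could overlap. A word stood in the windows of 13 of 29 DNA replication genes, against 3.4% of all genes in the table and 5.63% of the genes tested. It stood in 4.76% of the promoters of genes called higher and 8.13% of those called lower. Capitals mark the words, on either strand:
E2F2: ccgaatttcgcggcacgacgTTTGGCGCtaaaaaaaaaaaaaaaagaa
E2F1: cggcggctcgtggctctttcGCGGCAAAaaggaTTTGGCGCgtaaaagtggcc
PCNA: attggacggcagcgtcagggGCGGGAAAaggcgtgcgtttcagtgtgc
They lie on the minus strand at chr1:23531248-23531295, chr20:33686386-33686438 and chr20:5126654-5126701 in the order shown.

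Many genes of the actin cytoskeleton were higher with wild-type MKL1, most of them by a small step. Of 25 tested actins, tropomyosins and contractile genes, 16 were higher with MKL1 and 1 was lower, beside 15.8% and 15.4% of all genes tested, and the median log2 fold change over the list was 0.32 against 0.01 over all genes tested. MYL9, a regulatory light chain of myosin, and ACTA2, smooth muscle alpha-actin, were the exceptions in size. MYL9 (ENSG00000101335, chr20:36541484-36551447, plus strand, GRCh38) had 35.2, 41.3 and 37.7 CPM with MKL1, against 5.84, 4.75 and 6.14 CPM with control vector. This is a log2 fold change of 2.76 ± 0.10 (adjusted p = 4.6e-10, quasi-likelihood test in edgeR), and the groups lay far apart. For ACTA2, libraries had 12.0, 10.8 and 14.2 CPM with MKL1, against 3.89, 3.25 and 3.28 CPM with control vector, a log2 fold change of 1.83 ± 0.13 (edgeR adjusted p = 1.1e-06). Every MKL1 library lay above every control library. On the opposite strand FAS, with a log2 fold change of 0.38, overlaps 380 exonic bases of ACTA2. The 9 smooth muscle markers summed to 102 to 108 CPM with MKL1 and 74.2 to 80.9 CPM with control vector. Most of these sums was SMTN (means of 89.4 and 71.6 CPM) and ACTA2 itself (12.3 and 3.47 CPM). MYOCD was at 0, and MYH11, DES and CNN1 were too low to test. The part of smooth muscle cells in these rises was not tested.

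The other rises in the list were under 2-fold. TAGLN, the actin-binding protein transgelin, had 8.41, 9.28 and 8.48 CPM with MKL1, against 5.84, 4.84 and 4.88 CPM with control vector. MYLK, the kinase of the myosin light chain, had 21.6, 21.5 and 20.5 CPM with MKL1, against 11.6, 13.8 and 12.5 CPM with control vector. TPM2, a beta-tropomyosin, had 266, 274 and 273 CPM with MKL1, against 185, 176 and 177 CPM with control vector. In these genes the groups did not overlap, at log2 fold changes of 0.75 ± 0.11 (TAGLN), 0.75 ± 0.08 (MYLK) and 0.59 ± 0.04 (TPM2). TAGLN overlaps 446 exonic bases of PCSK7 on the other strand. CNN2 (calponin 2), TPM4 and SMTN (smoothelin), whose promoter stretches carry a CArG box above, rose by 0.62, 0.49 and 0.32 on the log2 scale.

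ACTB, cytoplasmic beta-actin, had 4041, 4278 and 3974 CPM with MKL1, against 3819, 3402 and 3397 CPM with control vector. Its log2 fold change was 0.21 ± 0.05. ACTG1, the other cytoplasmic actin, was at 0.13 ± 0.05 and did not pass (adjusted p = 0.064, edgeR's quasi-likelihood test), although its stretch holds a CArG box. TAGLN2, a relative of transgelin, fell by 0.25 on the log2 scale. A further 8 members, among them the smooth muscle genes CNN1, MYH11 and DES, had too few counts to test. Per length, MYL9 averaged 24.1 deposited FPKM with MKL1 and 3.77 with control vector, and ACTB averaged 2295 and 1947, so the strongest responder of the list was still a small fraction of ACTB.

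**Figure D1:**
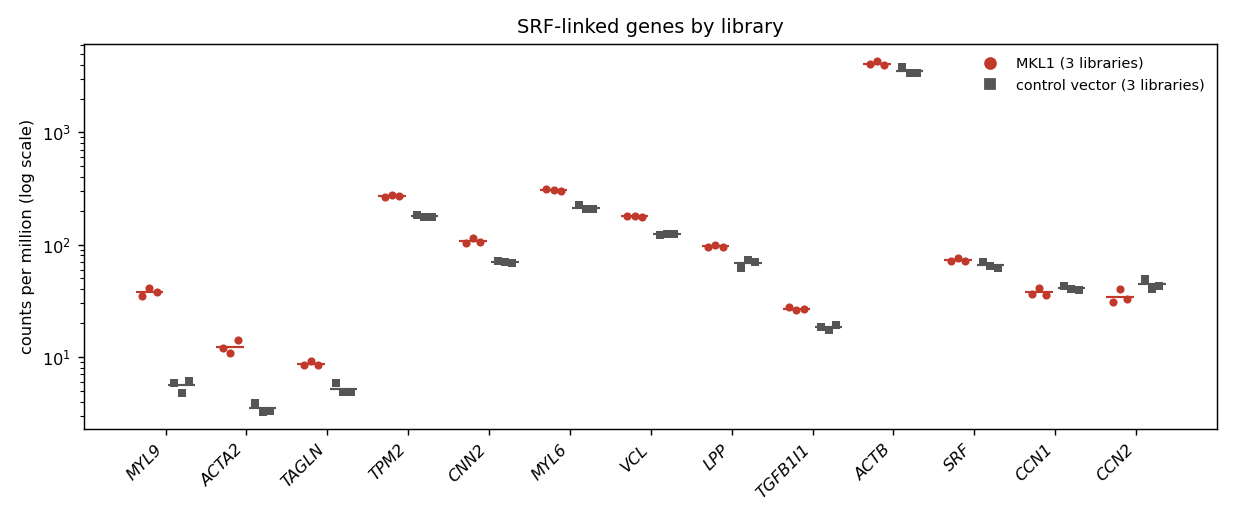
CPM (log scale) of 13 genes of the SRF programme in the 3 MKL1 libraries (red circles, left) and the 3 control vector libraries (grey squares, right), with a line at each mean. MYL9 and ACTA2 part widely, TPM2, CNN2, MYL6, VCL, LPP and TGFB1I1 part by a small step, and CCN1 overlaps between the groups.

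Of 30 tested focal adhesion genes, 12 were higher (40%) and 3 lower (10%), against 15.8% and 15.4% of all genes tested, at a median log2 fold change of 0.10. VCL, vinculin, which links integrin contacts to actin, had 178, 180 and 176 CPM with MKL1, against 122, 125 and 124 CPM with control vector, a log2 fold change of 0.53 ± 0.04. AP3M1 covers 1109 exonic bases of VCL from the other strand. LPP and TGFB1I1 (Hic-5), LIM proteins of adhesions, rose by 0.50 and 0.56 on the log2 scale. LCP1, the actin bundler L-plastin, rose at a low level, with 1.94, 2.54 and 1.93 CPM with MKL1, against 0.45, 0.53 and 0.55 CPM with control vector. The bundler FSCN1 (fascin), PARVA and TLN2 were lower. Of 27 actin turnover genes, 9 rose (33.3%) and 2 fell (7.41%). The actin-severing aids WDR1 and CAP1 rose by 0.33 and 0.22 on the log2 scale, and the formin DIAPH1 and profilin PFN1 fell by 0.22 and 0.19.

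Among SRF and its coactivators, partners and regulators, 12 tested in all, MRTFA alone was higher and PHACTR4, an actin-binding phosphatase regulator, alone was lower. Of all genes tested, 15.8% were higher and 15.4% lower, and a list of 12 is too short to tell its counts from these shares. MRTFA is the introduced gene, so its call cannot be read as a response of the native gene. PHACTR4 was at −0.14 ± 0.05, a call lost in 8 of the alternatives tried. SRF had 70.8, 75.4 and 71.4 CPM with MKL1, against 69.7, 64.3 and 62.2 CPM with control vector, a log2 fold change of 0.15 ± 0.05 (adjusted p = 0.054, edgeR's quasi-likelihood test). Control vector replicate 1 lay nearest to the MKL1 libraries, and without it the adjusted p was 0.0057 in edgeR's quasi-likelihood test; over all alternatives it ran from 0.0057 to 0.232, and SRF passed in 5 of them, also with library totals (0.0231), the stricter filter (0.0487), the replicate block (0.0423) and the 9-library fit (0.0492). MRTFB, the sister coactivator, was at −0.05 ± 0.05.

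Immediate early and YAP target lists, which include other SRF genes, were called at shares nearer those of all genes tested (15.8% higher, 15.4% lower). FOS, an immediate early transcription factor, had 5.26, 5.42 and 5.55 CPM with MKL1, against 6.29, 6.05 and 5.25 CPM with control vector, and the groups overlapped. CCN1 and CCN2, secreted matricellular proteins that SRF and YAP both drive, had log2 fold changes of −0.13 ± 0.07 and −0.36 ± 0.09. CCN2 passed the test, but not without MKL1 replicate 1 (adjusted p = 0.0599) or MKL1 replicate 3 (adjusted p = 0.0529, edgeR's quasi-likelihood test in both). Of 26 immediate early genes 5 rose (19.2%), EGR1 and BTG2 among them, and 5 fell (19.2%), KLF4, FOSL1 and JUN among them. Of 24 YAP-TAZ-TEAD targets 3 rose (12.5%) and 6 fell (25%).

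Collagens and matrix glycoproteins made up 6 of the 15 largest falls among genes averaging at least 1 CPM whose groups did not overlap. COL5A1, a chain of the fibril-nucleating type V collagen (ENSG00000130635, chr9:134641774-134844843, plus strand, GRCh38), had 20, 18.7 and 19.7 CPM with MKL1, against 77.3, 79.0 and 76.2 CPM with control vector. Its log2 fold change was −1.99 ± 0.06 (edgeR adjusted p = 4.3e-11), and the groups did not overlap. COL5A3 had 12.9, 11.5 and 13.4 CPM with MKL1, against 31.2, 34.8 and 31.0 CPM with control vector. COL5A2, the partner chain of COL5A1, went the other way, with 285, 269 and 278 CPM with MKL1, against 202, 205 and 200 CPM with control vector. Within type V collagen, 1 chain thus rose by 0.46 and the other two fell by 1.99 and 1.35 on the log2 scale.

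Across the 9 tested fibrillar collagens 3 rose and 4 fell, beside 15.8% and 15.4% of all genes tested; COL1A1, COL11A1 and COL5A2 rose, and COL2A1 and COL11A2 joined the falls. COL1A1 reached only 2.64 to 3.32 CPM with MKL1 and 1.39 to 1.84 CPM with control vector, and its call was lost without MKL1 replicate 1 (adjusted p = 0.0562, edgeR's quasi-likelihood test). Without that library 1 fibrillar collagen was called higher. Of the 20 other collagens, 8 fell (40%) and 3 rose (15%). COL6A1, COL6A2 and COL6A3, the 3 chains of the microfibrillar type VI collagen, fell by 0.70, 0.62 and 1.05 on the log2 scale. COL6A3 had 10.4, 12.0 and 11.3 CPM with MKL1, against 23.0, 24.2 and 22.4 CPM with control vector.

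Among 33 tested matrix glycoproteins 9 fell (27.3%, against 15.4% of all genes tested) and 5 rose (15.2%, near the 15.8% of all genes). MGP, matrix Gla protein, an inhibitor of calcification, showed the largest fall among genes averaging at least 1 CPM, with 1.60, 1.81 and 1.22 CPM with MKL1, against 9.87, 8.62 and 8.91 CPM with control vector (log2 fold change −2.57 ± 0.16, edgeR adjusted p = 1.8e-07). FN1, fibronectin (chr2:215360440-215436172, minus strand, GRCh38), had 189, 192 and 185 CPM with MKL1, against 433, 393 and 379 CPM with control vector (−1.09 ± 0.05, edgeR adjusted p = 1.1e-08). TGFBI, an adhesive protein induced by TGF-β, had 108, 92.9 and 101 CPM with MKL1, against 270, 251 and 234 CPM with control vector (−1.32 ± 0.06). The groups did not overlap in any of these genes. The 5 rises, SPARC, SMOC1, SPON2, ECM2 and FBLN5, were 0.23 to 0.95 on the log2 scale, with the collagen-binding SPARC at the low end.

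Of 11 proteoglycans 3 were higher and 3 lower, 27.3% each way against 15.8% and 15.4% of all genes tested. HAPLN1 and ACAN, among the falls, were not called without MKL1 replicate 2 (adjusted p = 0.0555 and 0.0522, edgeR's quasi-likelihood test). BGN, biglycan, had 27.2, 20.8 and 24.4 CPM with MKL1, against 51.7, 49.7 and 48.5 CPM with control vector. LUM, lumican, a fibril-binding relative of biglycan, had 6.94, 6.30 and 6.93 CPM with MKL1, against 3.62, 2.66 and 3.36 CPM with control vector. The pair moved in opposite directions by about the same amount, −1.05 ± 0.08 and 1.06 ± 0.14 on the log2 scale. LUM belongs to the fibroblast marker list, whose 10 members summed to 24.9 to 31.5 CPM with MKL1 and 22.6 to 23.6 CPM with control vector, with no member at 0; the part of that sum in the change of LUM was not tested.

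Of 23 collagen processing genes 8 fell (34.8%, against 15.4% of all genes tested) and 3 rose (13%, against 15.8%), LOXL2, a lysyl oxidase, and PCOLCE, an enhancer of procollagen cleavage, among the falls. Of 30 secreted proteases 10 fell (33.3%), HTRA1, MMP2, MMP14 and PLAT among them, and 3 rose (10%). The 8 falls in collagen processing were 5 without MKL1 replicate 2, without MKL1 replicate 3 or with library totals, and the 3 protease rises were 0 without MKL1 replicate 3 and 6 with library totals. Of 19 protease inhibitors 5 rose (26.3%) and 4 fell (21.1%). TIMP3, an inhibitor of metalloproteases held in the matrix, had 2313, 2491 and 2388 CPM with MKL1, against 1794, 1765 and 1791 CPM with control vector. SERPINF1, an antiangiogenic serpin, had 8.75, 6.64 and 8.82 CPM with MKL1, against 19.1, 19.3 and 21.3 CPM with control vector.

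**Figure D2:**
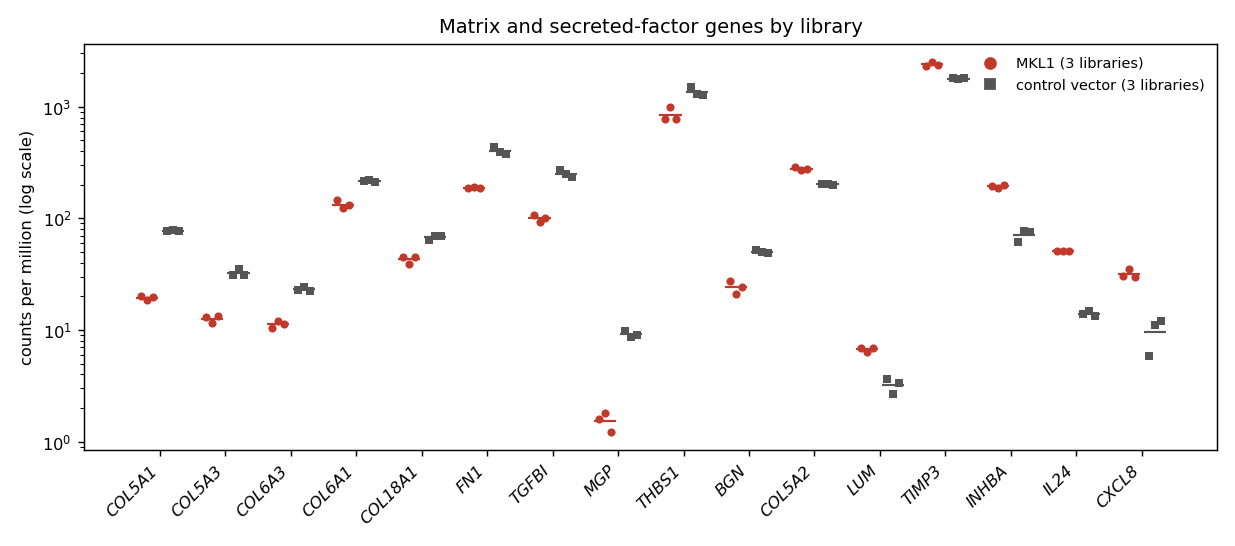
CPM (log scale) of 16 matrix and secreted-factor genes in the 3 MKL1 libraries (red circles, left) and the 3 control vector libraries (grey squares, right), with a line at each mean. From COL5A1 to BGN the MKL1 libraries lie below those of the control vector, and from COL5A2 to CXCL8 they lie above.

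Secreted factors moved in both directions, and IL24, TCN1, CXCL8, GDF15 and INHBA each rose by more than 2-fold. IL24, a cytokine of the IL-10 family (chr1:206897443-206904139, plus strand, GRCh38), had 50.6, 50.6 and 51.2 CPM with MKL1, against 13.9, 14.8 and 13.4 CPM with control vector (log2 fold change 1.86 ± 0.06, edgeR adjusted p = 3.4e-10). CXCL8, the neutrophil chemokine interleukin 8, had 30.6, 34.8 and 30.1 CPM with MKL1, against 5.84, 11.1 and 12.0 CPM with control vector. Control vector replicate 1 was the lowest library for CXCL8, whose log2 fold change was 1.72 ± 0.16. CXCL1, another ligand of the same receptors, rose by 0.90 on the log2 scale. Of 8 tested chemokines these 2 rose (25%) and none fell in edgeR, against 15.8% and 15.4% of all genes tested. The counts were the same in DESeq2 and at an unadjusted p under 0.05.

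INHBA, the subunit of activin A, a ligand of the TGF-β family, had 196, 187 and 200 CPM with MKL1, against 61.0, 76.9 and 75.7 CPM with control vector (log2 fold change 1.45 ± 0.07, adjusted p = 1.8e-08, edgeR's quasi-likelihood test). GDF15, a stress-induced member of that family, had 11.6, 13.5 and 10.6 CPM with MKL1, against 4.71, 3.83 and 4.41 CPM with control vector. TGFB1 fell by 0.38 on the log2 scale, and FST (follistatin, which binds activin) by 0.17, a call lost in 4 alternatives. Of 18 ligands and antagonists 3 rose (16.7%) and 2 fell (11.1%), near the 15.8% and 15.4% of all genes tested. Of 18 TGF-β and BMP response genes (22.2% called each way) 4 rose, ID1 and ID3 among them, and 4 fell, TGFBI among them; without MKL1 replicate 3 the rises were 2.

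Growth factors for receptor tyrosine kinases rose in 9 of 35 tested cases (25.7%, against 15.8% of all genes tested) and fell in 4 (11.4%, against 15.4%), at a median log2 fold change of 0.18. TGFA, an EGF receptor ligand, averaged 258 deposited FPKM with MKL1, the highest level of these genes, ahead of MDK (midkine) at 43.6. Its libraries had 809, 804 and 838 CPM with MKL1, against 582, 654 and 651 CPM with control vector. HGF, the ligand of MET, had 2.59, 2.15 and 2.65 CPM with MKL1, against 0.86, 0.92 and 1.05 CPM with control vector (log2 fold change 1.38 ± 0.22). BDNF, GDNF, PDGFC, PROS1, ANGPT1, EGF and VEGFC were the other rises. In DESeq2 the rises on this list were 7 and the falls 4. VEGFA had 65.0, 74.0 and 67.5 CPM with MKL1, against 84.0, 93.3 and 91.8 CPM with control vector, and MDK, EFNB2 and PTN fell as well.

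Among all genes tested 15.8% rose and 15.4% fell. Of 17 genes on the cytokine list 5 rose (IL24, IL1A, TNFSF4, IL12A and IL7) and 6 fell. TNFSF9, CLCF1, IL11, MIF and the receptor LTBR were among the falls. Of the 10 IGF-binding and CCN proteins 4 fell (40%) and 2 rose (20%). IGFBP5 had 24.2, 16.1 and 24.0 CPM with MKL1, against 54.0, 60.0 and 59.4 CPM with control vector, and IGFBP3 fell by 1.06 on the log2 scale, while IGFBP7 rose by 0.64. Of 24 hormones and carriers 6 rose and 6 fell (25% each way). TCN1, a vitamin B12 carrier, had 48.4, 40.2 and 47.5 CPM with MKL1, against 11.4, 13.3 and 13.6 CPM with control vector, while APOE and STC2 fell. Without control vector replicate 2 the rises in that list were 3. The hair keratin KRT81 rose by 1.33 and KRT86, a near copy whose reads counting could split, by 2.05 on the log2 scale.

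DNA replication genes had the lowest median of the lists, −0.38 on the log2 scale. Of 34 tested, 30 were lower with MKL1 in edgeR (88.2%, against 15.4% of all genes tested) and 29 in DESeq2, and 28 to 32 over the alternatives tried. None was higher by either tool or at an unadjusted p under 0.05, since all 34 log2 fold changes were negative. E2F1, an activator of S-phase genes, had 41.9, 47.2 and 41.2 CPM with MKL1, against 71.6, 66.5 and 66.5 CPM with control vector (−0.65 ± 0.06, edgeR adjusted p = 1.2e-05). E2F2 had 16.98, 20.1 and 19.0 CPM with MKL1, against 28.4, 30.6 and 30.2 CPM with control vector. The groups did not overlap in either gene. PCNA, the polymerase clamp, had 177, 197 and 178 CPM with MKL1, against 249, 246 and 241 CPM with control vector. These are the genes whose stretches with E2F words are shown above. POLA1, RFC4 and GINS1 are among those that did not pass, and the searched window of POLA1 also holds an E2F word.

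Of 25 p53 target genes 19 were higher (76%, against 15.8% of all genes tested) and none lower in edgeR and DESeq2 alike, at a median log2 fold change of 0.34, and 18 to 20 were higher over the alternatives; 1 was lower at an unadjusted p under 0.05. CDKN1A, the cell cycle inhibitor p21, had 282, 279 and 283 CPM with MKL1, against 187, 186 and 181 CPM with control vector (log2 fold change 0.61 ± 0.04, edgeR adjusted p = 4.4e-07). MDM2, which degrades p53, rose by 0.24 and BAX, an apoptosis effector, by 0.28 on the log2 scale. Of 29 mitosis genes 8 fell (27.6%, against 15.4% of all genes tested) and 2 rose (6.9%), at a median log2 fold change of only −0.02. MKI67 fell by 0.22 on the log2 scale. Without MKL1 replicate 3, however, the falls were 3, and without MKL1 replicate 1 they were 5.

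**Figure D3:**
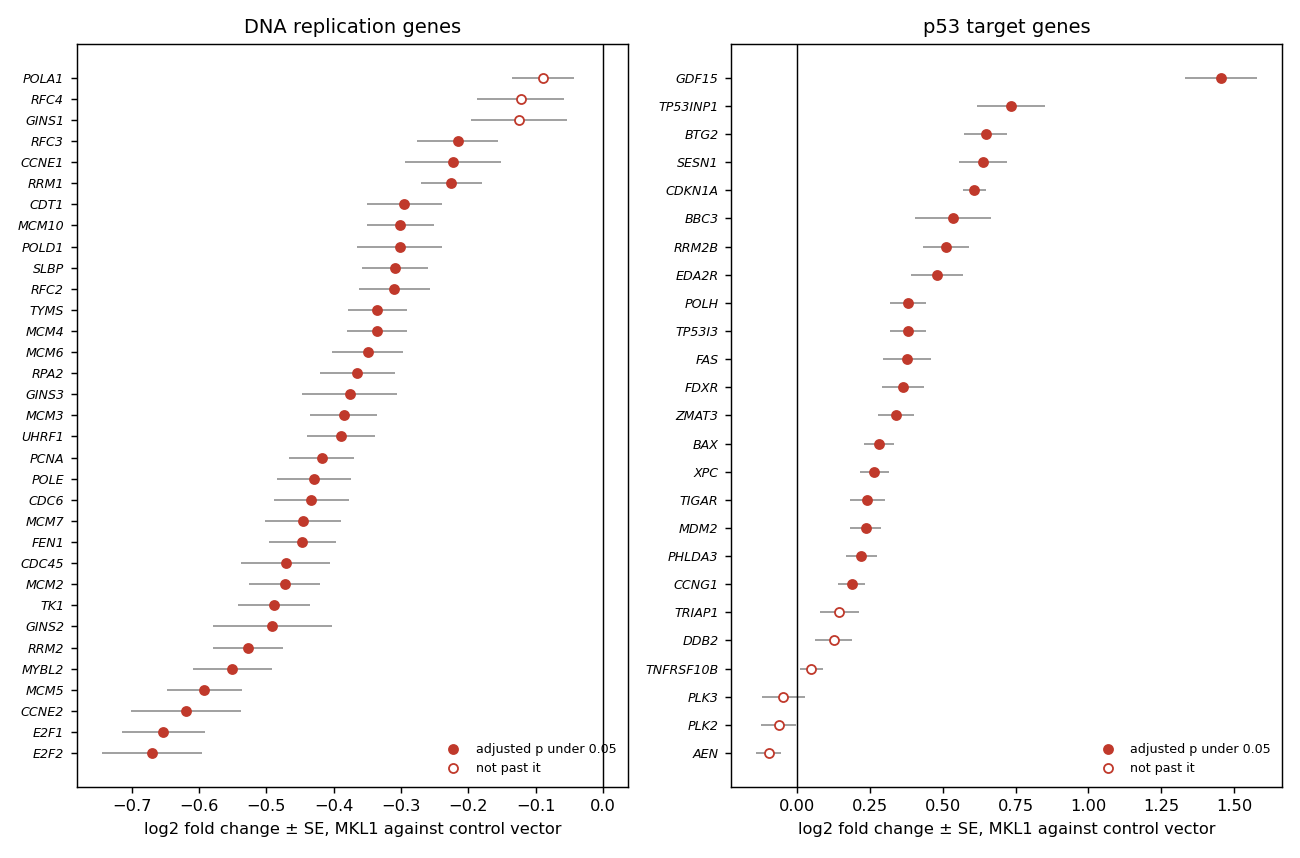
Log2 fold change of MKL1 against control vector with its SE for 33 of the 34 tested DNA replication genes (left) and every tested p53 target gene (right), filled where the adjusted p was under 0.05. All 33 replication genes drawn lie left of 0 and 30 are filled, and 19 of 25 p53 targets lie right of 0 and are filled.

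**Figure D4:**
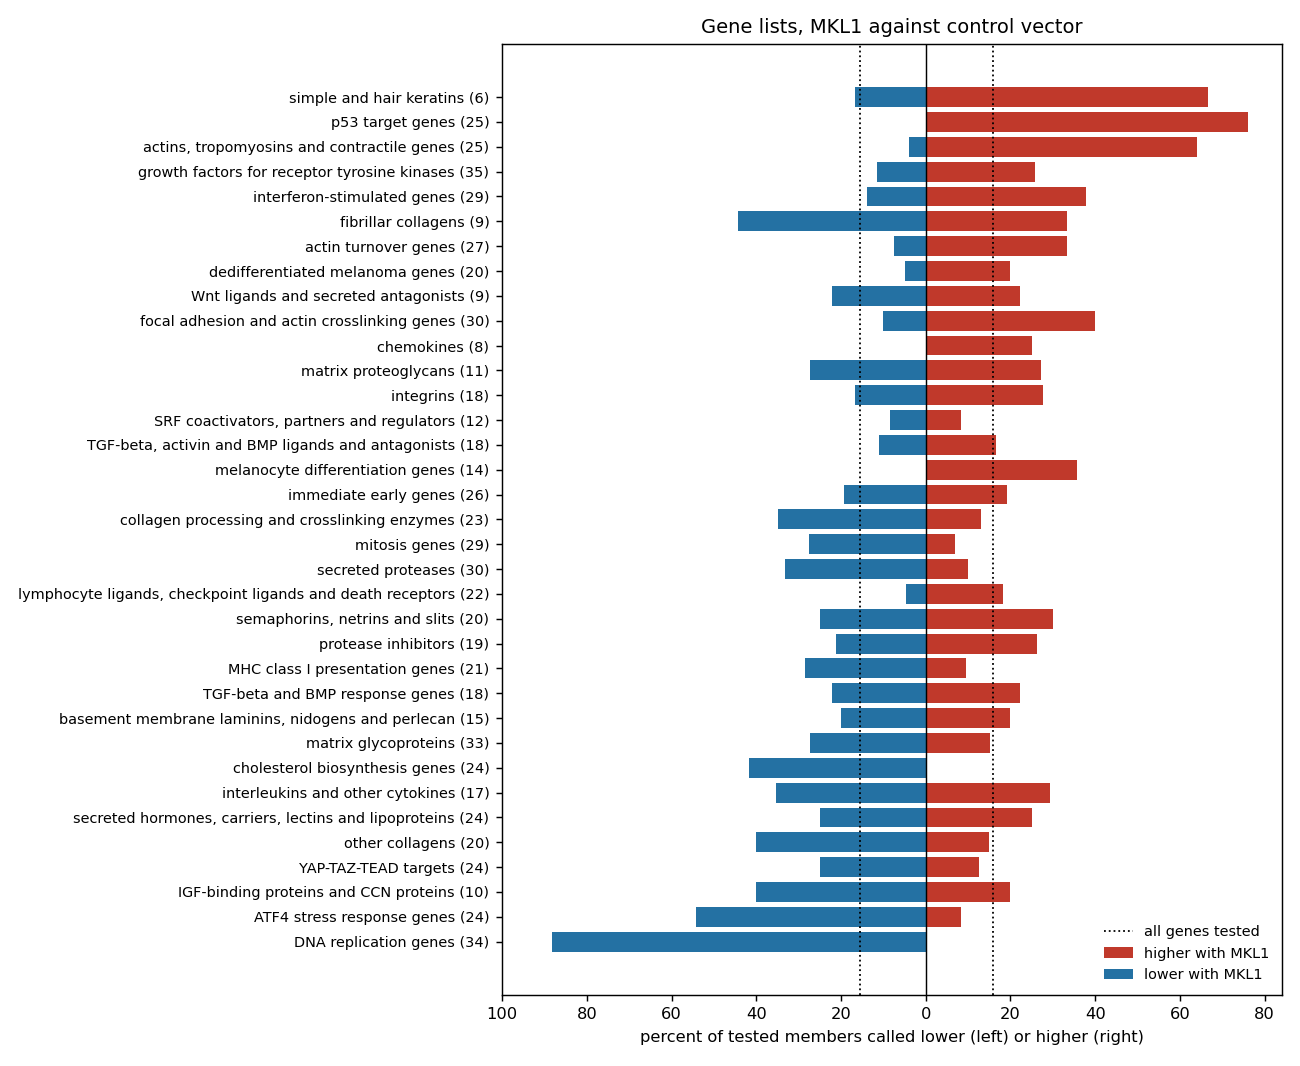
Percent of the tested members of each gene list called higher (red, right) or lower (blue, left) with MKL1 against control vector, lists ordered by median log2 fold change with the number tested in brackets. Dotted lines mark all genes tested (15.8% higher, 15.4% lower), and DNA replication genes, with 30 of 34 lower, and p53 targets, with 19 of 25 higher, extend farthest.

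MKL1 and caMKL1 were each compared with the same control vector libraries, so the values against control given next to each other here are not independent. In the fit over 9 libraries, 7164 of 13720 genes (52.2%) differed between caMKL1 and MKL1, and in their own fit 8623 of 13558 (63.6%) differed between caMKL1 and control vector. The caMKL1 libraries held 16557803 to 20895879 counts. On the 9-library scale MYL9 stood at 34.5 to 40.8 CPM with MKL1, at 1365 to 1374 CPM with caMKL1 and at 4.72 to 6.11 CPM with control vector. SRF stood at 69.5 to 74.3 CPM with MKL1, at 263 to 272 CPM with caMKL1 and at 62.0 to 69.5 CPM with control vector. The caMKL1 libraries lay far above the MKL1 libraries in both genes.

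Genes that responded to wild-type MKL1 were also searched for those with no like response to the active form. Of 316 genes that rose by at least 0.58 on the log2 scale with MKL1, 31 differed between the forms and were under 0.26 in size or of opposite sign with caMKL1. Of 126 that fell by as much, 24 did. FN1 stood at 182 to 189 CPM with MKL1, at 796 to 836 CPM with caMKL1 and at 377 to 431 CPM with control vector. It was lower than control with MKL1 and higher than control with caMKL1, and caMKL1 minus MKL1 was 2.15 ± 0.05 on the log2 scale (adjusted p = 1.7e-16, edgeR's quasi-likelihood test). COL6A3 and COL8A1 likewise fell with MKL1, while with caMKL1 they rose by 0.39 and 0.58 on the log2 scale. Not all matrix falls turned round in this way. MGP, TGFBI, COL5A1 and COL5A3 were lower than control with both forms, at log2 fold changes of −4.91, −1.99, −0.74 and −0.46 with caMKL1.

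KDR, the main VEGF receptor, lay the other way round. It stood at 10.9 to 12.2 CPM with MKL1, at 3.95 to 4.64 CPM with caMKL1 and at 5.20 to 6.45 CPM with control vector. KDR is 1 of 6 endothelial markers, which summed to 13.1 to 14.6 CPM with MKL1 and 6.85 to 8.01 CPM with control vector, with VWF not called and PECAM1, CDH5, TEK and CLDN5 too low to test. DMBT1, a secreted scavenger receptor protein, stood at 4.10 to 5.27 CPM with MKL1, at 0.19 to 0.57 CPM with caMKL1 and at 1.13 to 2.03 CPM with control vector. HSPA1B, a heat-inducible chaperone with the near copy HSPA1A, rose by 0.70 with MKL1 and fell by 0.61 with caMKL1 on the log2 scale.

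**Figure D5:**
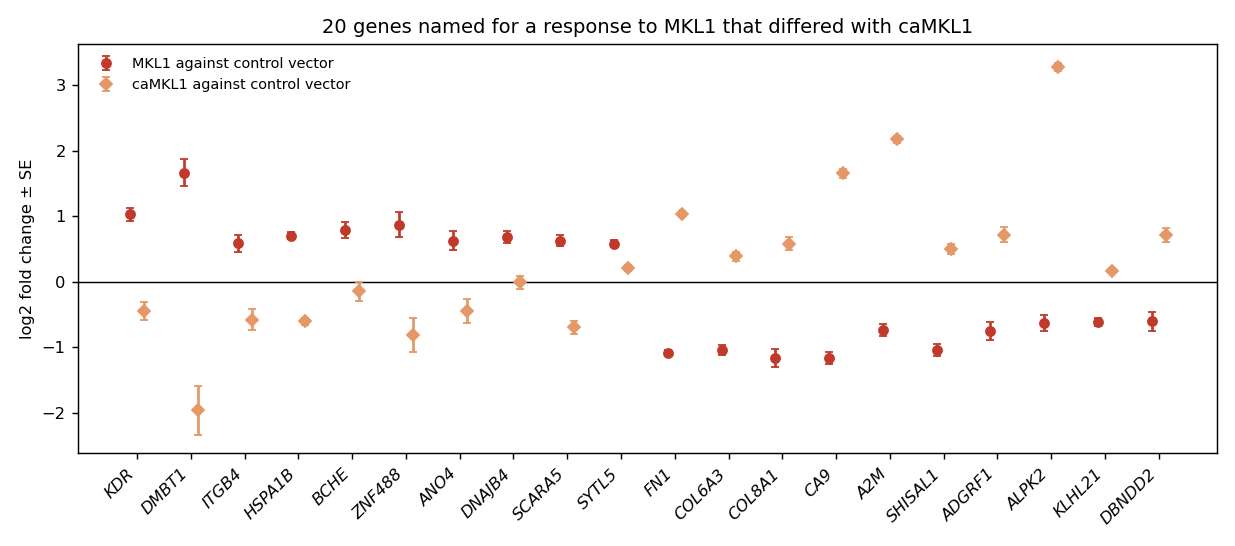
Log2 fold change with its SE against control vector for MKL1 (red circles, left) and caMKL1 (orange diamonds, right) in the 20 genes named for a response to MKL1 that differed with caMKL1. The 10 genes on the left lie above 0 with MKL1, and the 10 on the right lie below 0 with MKL1 and above 0 with caMKL1.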

How the data were processed

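Poly(A) RNA-seq libraries were made from A375 cells, per the labels' protocols. The deposited tables hold counts per gene and library, per the file headers; RSEM, HISAT2 2.2.4, Bowtie2 2.2.8, StringTie 1.3.1, DESeq2 and GRCh38 are named in the submitters' processing notes with no role, so the counts may be rounded estimates. Neither strand use nor the annotation release is stated in the labels or headers. The authors also deposited FPKM, used here only for levels per length, and their own log2 fold change and p-value columns, used only as an alternative; in the authors' deposited table a total of 3207 genes had an adjusted p under 0.05, 3152 of them also called here and 3143 with the same sign.

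Counts were fitted in edgeR 4.0.16 (R 4.3.3; TMM, filterByExpr, quasi-likelihood test, two-sided, Benjamini-Hochberg, threshold 0.05) on the 6 libraries, and on 9 libraries for caMKL1 against MKL1. Standard errors were derived from each log2 fold change and its F value; CPM use TMM factors. The counts of 3042 genes were 0 in all 6 libraries. The fit was tested on simulated data, where the share of false calls was 9.048%, above the threshold. The calls and list counts may thus hold more false calls than the adjusted p states. Calls near the threshold are less certain than it states. Depth was 20387727 to 23957043 counts a library. Gene coordinates and overlaps come from GENCODE 29.

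Named genes are the tested SRF coactivator list, the 15 largest rises and falls averaging at least 1 CPM with groups that do not overlap, up to 5 members of each of 41 lists by smallest p, 12 fixed genes, and up to 10 in each direction that responded to MKL1 and not alike to caMKL1. Other list members were named after their values were seen, to complete a count. The members and lists were chosen with earlier results of these data known. Alternatives were other size factors, DESeq2 1.42.0, other filters, single libraries left out, a replicate block and the 9-library fit. No label says whether replicate numbers pair the libraries, and the main fit did not pair them. Results of a few list members are not reported here, though their lists' counts and summed levels include them.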

Additional observations from a re-analysis of the deposited data

Results flagged for a closer look

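The response to MKL1 and the response to caMKL1, each against the same control vector libraries, differed in the test of caMKL1 against MKL1 (edgeR's quasi-likelihood test over 9 libraries) for 17 named genes that were called in opposite directions against control vector. Values are log2 differences, caMKL1 minus MKL1. Among genes lower with MKL1, FN1 differed by 2.145, COL6A3 by 1.451, COL8A1 by 1.762 and the protease inhibitor A2M by 2.924. CA9, a carbonic anhydrase that overlaps ARHGEF39 on the other strand, differed by 2.831, ALPK2 by 3.933, SHISAL1 by 1.567, ADGRF1 by 1.493, DBNDD2 by 1.336 and KLHL21 by 0.8075. Among genes higher with MKL1, KDR differed by −1.451, DMBT1 by −3.606, ITGB4, a laminin-binding integrin chain, by −1.148, HSPA1B by −1.291, SCARA5 by −1.299, ZNF488 by −1.663 and ANO4 by −1.052. The genes were chosen for this difference, so the values describe them.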

How the results depend on the processing

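The number of genes called, 4182, was 4222 with DESeq2 size factors, 4217 with library totals (2534 higher, 60.1%, against 50.5%), 3627 in DESeq2 and 4828 in the 9-library fit. Leaving out single libraries gave 2595 (without MKL1 replicate 3) to 4094. With the replicate number as a block 4569 genes were called. Deviations of same-numbered libraries showed little correlation (−0.0105, −0.041 and −0.0175). With so few libraries this cannot show whether the numbers pair them, and no label says so. Genes of at least 2-fold numbered 124 with the stricter filter and 232 without a filter, against 177. The caMKL1 against MKL1 calls numbered 6194 to 7692, 35.8% of them higher in caMKL1 with library totals, against 48.3%. Allowing 1 mismatch raised the share of promoters with a CArG box to 8.6%, against 1.44%. The share was then 9.16% in genes called higher and 8.91% in genes called lower, both near the 8.83% of genes tested. Of 225 named genes, 33 changed call under some alternative, 29 lost and 4 gained, and none reversed. List counts moved by over 1.5 times in 101 of 1066 comparisons with the alternatives. Depth limits genes near 3 counts, such as DKK2.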

Other observations

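Among all genes tested 15.8% rose and 15.4% fell with MKL1. Of 24 ATF4 stress response genes 13 fell (54.2%) and 2 rose (8.33%), at a median log2 fold change of −0.19. ATF4, a transcription factor of the amino acid response, had 324, 350 and 322 CPM with MKL1, against 421, 401 and 408 CPM with control vector. CHAC1, ATF5 and TRIB3, its known targets, fell by 0.57, 0.55 and 0.35 on the log2 scale. The 2 rises on the list were ALDH1L2 and ASNS. Of 24 cholesterol biosynthesis genes 10 fell (41.7%) and none rose in edgeR, against 8 and none in DESeq2, and none rose at an unadjusted p under 0.05. The falls were 6 without MKL1 replicate 2 and 4 without MKL1 replicate 3, the last near the share of all genes.

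Of 29 interferon-stimulated genes 11 rose (37.9%, against 15.8% of all genes tested), GBP1 by 1.79 on the log2 scale, and 4 fell, IFITM1 among them; the rises were 6 without MKL1 replicate 1 and 7 without MKL1 replicate 3. Of 21 MHC class I presentation genes 2 rose (9.52%) and 6 fell (28.6%, against 15.4%), with B2M at 0.02, and the falls were 3 without MKL1 replicate 1 or 3. Of 22 lymphocyte ligands, checkpoint ligands and death receptors 4 rose (18.2%), FAS among them, and 1 fell (4.55%), with CD274 at 0.02. In DESeq2 the rises were 2 and none fell. Of 14 melanocyte genes 5 rose (35.7%) and none fell in edgeR, and 4 and none in DESeq2, with 1 lower at an unadjusted p under 0.05. S100B, a calcium-binding protein of the melanocytic lineage, had 74.3, 70.3 and 73.6 CPM with MKL1, against 40.1, 40.2 and 38.3 CPM with control vector. Of 20 dedifferentiated melanoma genes 4 rose (20%) and 1 fell (5%).

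The shares of further lists are given beside those of all genes tested (15.8% higher, 15.4% lower). Integrins rose in 5 of 18 cases (27.8%) and fell in 3 (16.7%), and basement membrane genes rose in 3 of 15 and fell in 3 (20% each way). Wnt ligands and antagonists rose in 2 of 9 and fell in 2 (22.2% each way), and semaphorins, netrins and slits rose in 6 of 20 (30%) and fell in 5 (25%). Simple and hair keratins rose in 4 of 6 (66.7%) and fell in 1 (16.7%), at a median log2 fold change of 0.73. In DESeq2 the keratin rises were 3, since KRT7, a gene of few counts, was not called. The near copies KRT81 and KRT86 are both among the rises, and a list of 6 is too short to tell its counts from these shares. The 8 epithelial markers summed to 226 to 249 CPM with MKL1 and 252 to 258 CPM with control vector, with none at 0 in all libraries, and the 7 melanocytic markers to 1087 to 1178 CPM and 1029 to 1125 CPM in the same libraries.

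Among the 15 largest rises, MAPK4, an atypical MAP kinase, was at 1.77, and SPRR2D and CSRNP3 at 1.77 and 1.72 on the log2 scale. NXF2B had 9.01, 7.38 and 7.56 CPM with MKL1, against 3.85, 0 and 1.09 CPM with control vector, a log2 fold change of 2.26 that was 3.765 without control vector replicate 1 and 1.699 without control vector replicate 2. It was not called by DESeq2 (adjusted p = 0.293; range over the alternatives 1.04e-05 to 0.293). Of its 2597 exonic bases, 2261 are shared with AC235565.2 on the same strand, so its reads are uncertain. Records named DNAJC14 and PEX19 were among the largest falls, while the other records of those symbols did not fall.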
